A study of Mus musculus with 6 samples.

Results

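The genes described here encode the proteins of the cytosolic ribosome, read in the liver RNA of 6 male mice and taken apart by subunit. A row of the count table was a member when its Ensembl identifier maps to a protein-coding mouse gene named Rpl or Rps followed by a number and at most 1 letter, or named Rplp0, Rplp1, Rplp2 or Rpsa. Rps6k kinases and rows with a "-ps" name were left out. Of 52550 rows, 80 had such a name, and 78 of them held at least 10 counts summed over the 6 libraries: 47 of the large (60S) subunit and 31 of the small (40S) subunit. The members lie on 19 chromosomes. The pair under the minimum was Rpl39l, with 3 counts in all, and Rpl10l, with 0. The members nearest above it were Rpl24, with 23 counts, and Rpl3l, with 28. Both were too low for the test, which leaves 45 members of the 60S subunit and 31 of the 40S subunit tested.

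The study compared 3 Slc7a11-LTG transgenic mice (TG) with 3 control mice (WT). Slc7a11 encodes the cystine-glutamate exchanger xCT. All 6 mice were 8 weeks old and all had been on an MCD diet, short of methionine and choline, for 1 week, so that no group shows the ribosomal protein genes without the diet. The promoter and the cell type that drive the transgene are not given in the labels. The replicates are separate mice per the series' design text.

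A cytosolic ribosome is built from a large subunit, which joins amino acids, and a small subunit, which reads the mRNA, and each holds a set of proteins present mostly in 1 copy. In mammals the mRNAs of these proteins begin with a C followed by a run of pyrimidines, the terminal oligopyrimidine (TOP) tract. Through this tract their translation follows the kinase mTORC1 by way of Larp1. Their RNA is abundant in liver, where secreted plasma proteins are made in bulk.

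Start sites are shown because they carry the one sequence feature that most of these mRNAs are known to share. RefSeq promoter windows of build GRCm38.p6 were found for 58 of the 78 members. Each line gives 15 bases before and 15 bases from the annotated start, with capitals marking a pyrimidine tract, defined as a C followed by at least 4 C or T that begins within 10 bases of the start. The first 7 genes hold such a tract and the last 2 do not; all 9 appear in the results.
Rpl14 (chr9:120571502-120571531, plus strand): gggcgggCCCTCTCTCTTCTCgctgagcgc
Rplp2 (chr7:141447636-141447665, plus strand): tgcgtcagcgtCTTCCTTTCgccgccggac
Rpl39 (chrX:37085208-37085237, minus strand): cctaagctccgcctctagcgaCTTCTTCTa
Rps6 (chr4:86857353-86857382, minus strand): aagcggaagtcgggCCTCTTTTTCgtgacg
Rps27 (chr3:90213634-90213663, minus strand): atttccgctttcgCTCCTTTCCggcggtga
Rps2 (chr17:24720048-24720077, plus strand): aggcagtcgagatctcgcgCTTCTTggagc
Rps18 (chr17:33955651-33955680, minus strand): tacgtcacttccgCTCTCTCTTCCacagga
Rpl5 (chr5:107900513-107900542, plus strand): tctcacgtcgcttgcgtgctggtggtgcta
Rps13 (chr7:116334176-116334205, minus strand): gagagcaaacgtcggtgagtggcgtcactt

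A tract stood near the start of 19 of 35 members of the 60S subunit (54.3%) and 14 of 23 of the 40S subunit (60.9%), against 30.8% of all 27025 promoters in the table. The annotated start may differ from the start used in these livers, so a window without the tract says only that these letters are not there. Over the full windows of 300 bases, searched on both strands, the ETS-type motif CTTCCGG stood in 13 of 35 (37.1%) and 10 of 23 (43.5%) members, against 9.12% of all promoters. TCTCGCGA was found in 5 (14.3%) and 4 (17.4%), against 1.08%. GCCATCTT, the core of a YY1 site, was found in 2 (5.71%) and 2 (8.70%), against 2.88%. These matches describe the windows and are not shown to be bound.

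Total counts ran from 16016640 to 17463329 per library, and 3 counts, taken as the smallest number told from 0, corresponded to 0.172 to 0.187 CPM, the count scaled by sequencing depth. These limits take in only counting error. Slc7a11 held 72729, 24359 and 57242 counts in the TG livers and 46, 44 and 204 counts in the WT livers, in the order of the replicate numbers 1 to 3 here and throughout. Hepatocyte markers (Alb, Apoa1, Ttr and others) summed to 84631 to 97833 CPM in TG and 86822 to 167615 CPM in WT livers, with WT replicate 2 highest. Macrophage markers summed to 385 to 2141 CPM in TG and 208 to 369 CPM in WT livers.

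The summed transcripts of both subunits were lower in TG than in WT livers after TMM scaling, and no single gene passed the test. Unless stated otherwise, CPM below are TMM-scaled. The 60S members summed to 8158, 7719 and 7764 CPM in the TG livers and to 8575, 11482 and 9356 CPM in the WT livers. The means were 7880 ± 242 and 9805 ± 1504 CPM (SD, n = 3 each), a difference of -19.6%. The 40S members summed to 5699, 5464 and 5473 CPM in TG and to 6065, 8123 and 6650 CPM in WT livers. Their means were 5545 ± 134 and 6946 ± 1061 CPM, a difference of -20.2%. TMM-scaled CPM do not add up to the same total in each library. The summed CPM of all genes tested differed by -9.02%, and that of genes with a mean of at least 50 CPM by -10.97%. For both subunits the 3 TG livers lay close together and below all 3 WT livers, and WT replicate 2 stood above the other WT livers.

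Scaling by library size alone gave overlapping groups. The 60S members then summed to 7969, 7838 and 8941 CPM in TG and 8031, 9485 and 10586 CPM in WT livers, a difference of -11.9%. The 40S members summed to 5567, 5548 and 6303 CPM in TG and 5680, 6710 and 7524 CPM in WT livers, a difference of -12.5%. On this scale TG replicate 3 lay above WT replicate 1 for both subunits. The TMM factors ran from 0.977 to 1.15 in TG and from 0.826 to 1.13 in WT livers, and WT replicate 2 had the lowest. In bulk liver RNA, fewer cells of a type and less RNA of a gene per cell cannot be told apart.

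**Figure D1:**
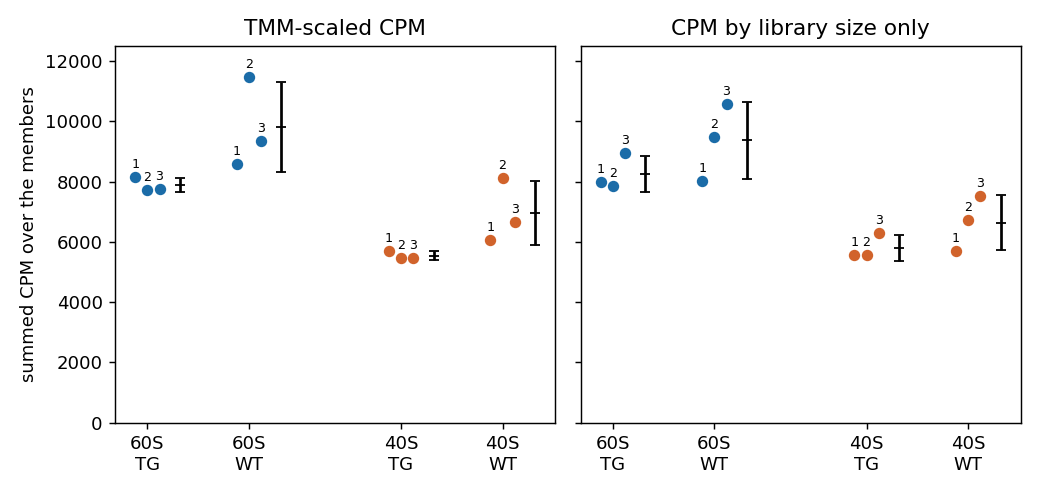
Summed CPM of the 60S and 40S members in each library, with TMM scaling and with library size only; points are single mice and bars the group means with SD. With TMM scaling all 3 TG livers lie below all 3 WT livers, while by library size alone TG replicate 3 lies above WT replicate 1.

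The balance of the subunits was close to the same in the 6 livers. The summed 60S counts were 1.43, 1.41 and 1.42 times the summed 40S counts in TG and 1.41 times in each of the 3 WT livers. The 60S members took 0.782% to 0.893% of counts in TG and 0.802% to 1.06% in WT livers, and the 40S members took 0.554% to 0.629% and 0.567% to 0.751%.

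Gene by gene, edgeR's quasi-likelihood test at an adjusted p under 0.05 called 0 of 45 members of the 60S subunit and 0 of 31 of the 40S subunit, as it called 0 of all 14031 genes tested (0%). At an unadjusted p under 0.05 it gave 1 member, Rpl21, against 2.37% of all genes in that direction. DESeq2 called 2.71% of all genes it tested in either direction after adjustment, but 0.255% as lower in TG. DESeq2 and limma voom called 0 members each after adjustment. At an unadjusted p under 0.05 DESeq2 gave 10 members, all lower in TG, against 3.21% of all genes in that direction. Voom gave 0. Adjusted p-values of edgeR ran from 0.444 to 0.816 in the 60S subunit and from 0.484 to 0.809 in the 40S subunit.

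Fitted log2 fold changes, TG minus WT, were below 0 for all 76 members tested, with TMM scaling and by library size alone. Of all genes, 53.8% were below 0 with TMM scaling and 39.3% by library size, and 66.8% of the 3115 genes with a mean of at least 50 CPM were below 0 with TMM scaling. The median was -0.30 over the 60S members, from -0.47 to -0.17, and -0.32 over the 40S members, from -0.42 to -0.15. It was -0.03 over all genes and -0.12 over genes of at least 50 CPM. Without WT replicate 2 the medians were -0.16 for 60S and -0.17 for 40S, and by library size alone they were -0.17 and -0.19, where the median of all genes moved by 0.12 to 0.09.

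All 3 TG values lay below all 3 WT values for 29 of 45 members of the 60S subunit and 17 of 31 of the 40S subunit. Over all genes this held for 6.14%, and over genes of at least 50 CPM for 8.03%. By library size alone it held for 1 member of the 60S subunit, Rpl5, and 0 of the 40S subunit, against 2.26% of all genes. The opposite order was met by 0 members with TMM scaling, against 9.22% of all genes.

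**Figure D2:**
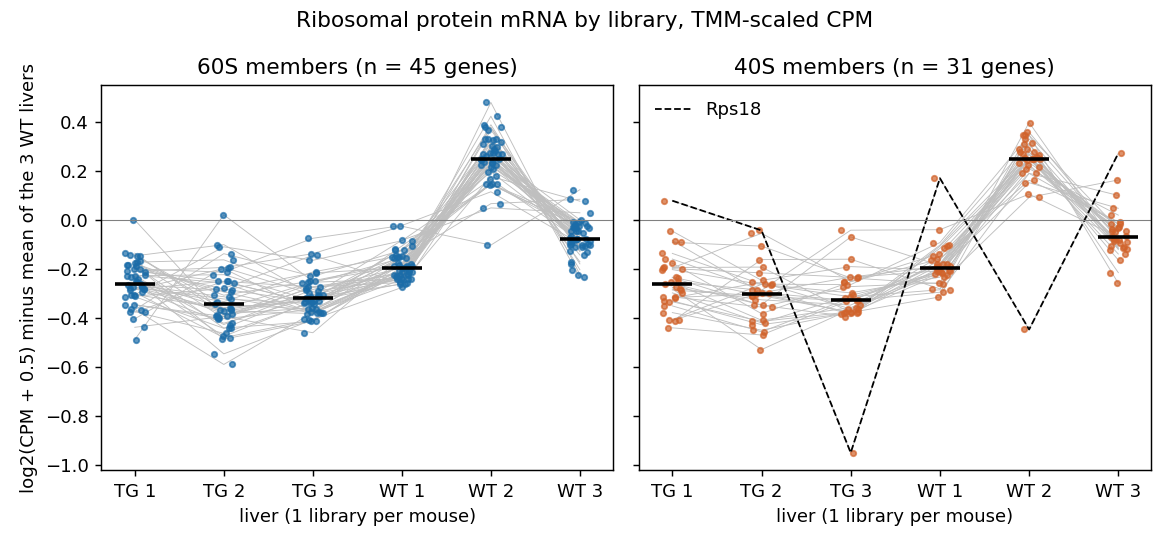
Difference of each tested member from its WT mean (log2, TMM-scaled CPM) in each library, 60S and 40S apart. The members of a library lie close together, with WT replicate 2 highest and the 3 TG livers lowest for most; Rps18 stands apart in TG replicate 3 and WT replicate 2.

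Within each liver the members lay close together. The median difference from the WT mean, on the scale of log2(CPM + 0.5), of the 60S members was -0.26, -0.34 and -0.32 in TG and -0.19, 0.25 and -0.07 in WT livers. For the 40S members it was -0.26, -0.30 and -0.32 in TG and -0.19, 0.25 and -0.07 in WT livers. Within a library the middle 50% of the members spanned 0.07 to 0.15 on this scale, and the middle 50% of genes of at least 50 CPM spanned 0.32 to 0.55. The order of the libraries was shared, but it depended on the scaling. With TMM scaling, WT replicate 2 was the highest of the 6 for 43 of 45 members of the 60S subunit and 29 of 31 of the 40S subunit. The lowest was a TG liver for all 45 and for 30 of 31. By library size alone WT replicate 3 was the highest for 37 of 45 and 26 of 31, and WT replicate 1 was the lowest for 8 and 10. Since the members share each library's scaling and RNA, they are not independent measures of the difference between the groups.

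**Figure D3:**
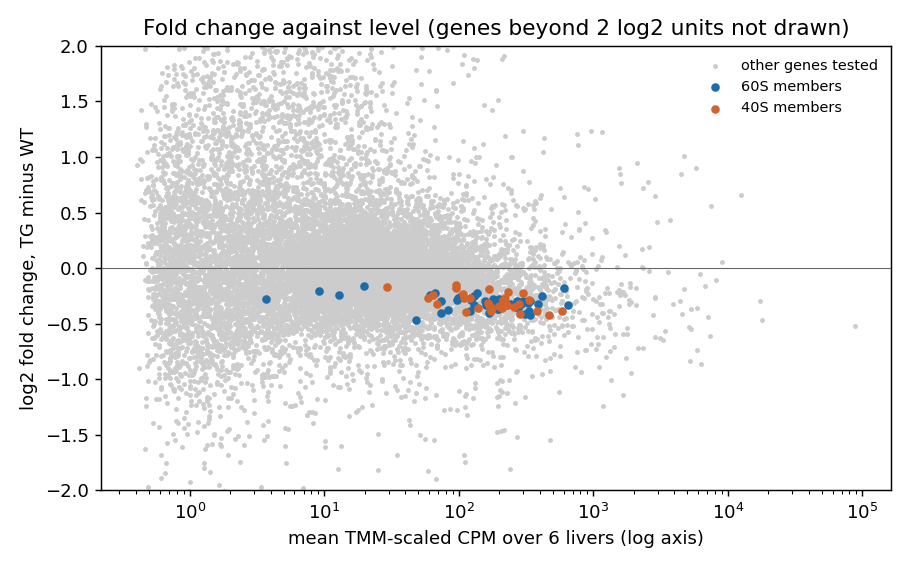
Fitted log2 fold change (TG minus WT) against mean level of all genes tested, with the 60S and 40S members marked; the mean level is on a log axis and genes beyond 2 on the log2 scale are not drawn. All 76 members lie below 0, between -0.47 and -0.15.

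Among the 60S members, Rpl4, a protein beside the exit tunnel, was the most abundant by CPM, at 606, 554 and 563 CPM in TG and 671, 801 and 699 CPM in WT livers. The groups did not overlap, at 574 ± 27.7 and 724 ± 68.2 CPM (SD, n = 3 each), with a log2 fold change of -0.33 (SE 0.23, edgeR adjusted p = 0.651). The fold change furthest from 0 was that of Rpl21, at 42.1, 36.0 and 41.7 CPM in TG and 45.9, 70.4 and 49.7 CPM in WT livers. These groups did not overlap either, and WT replicate 2 lay far above the rest, with a log2 fold change of -0.47 (SE 0.20, edgeR unadjusted p = 0.0478, adjusted p = 0.444). Rpl36a had 64.5, 60.6 and 66.3 CPM in TG and 71.0, 100.5 and 82.1 CPM in WT livers, without overlap, and a log2 fold change of -0.40 (SE 0.18, edgeR adjusted p = 0.457).

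Rpl8, which lies near the site where amino acids are joined, read 321, 260 and 286 CPM in TG and 327, 497 and 335 CPM in WT livers. The groups were separated by a narrow gap, and WT replicate 2 raised the WT mean, with a log2 fold change of -0.42 (SE 0.26, edgeR adjusted p = 0.599). Rpl14, whose tract is shown above, read 153, 134 and 141 CPM in TG and 155, 226 and 188 CPM in WT livers, with a log2 fold change of -0.41 (edgeR adjusted p = 0.535). At the other end, Rpl30 had 18.04, 17.9 and 19.7 CPM in TG and 20.4, 22.5 and 19.4 CPM in WT livers. Its groups overlapped, and its log2 fold change was -0.17 (SE 0.15, edgeR adjusted p = 0.743). Rpl23a, which lies at the tunnel's outlet, had 7.83, 9.04 and 8.68 CPM in TG and 9.21, 11.04 and 9.20 CPM in WT livers. Its groups did not overlap, but the gap between them was small, and its log2 fold change was -0.20 (edgeR adjusted p = 0.760).

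The stalk proteins, which draw translation factors to the 60S subunit, had log2 fold changes between -0.33 and -0.18. Rplp0, the base of the stalk, had 585, 604 and 523 CPM in TG and 612, 670.3 and 661 CPM in WT livers. Its log2 fold change was -0.18 (SE 0.23, edgeR adjusted p = 0.816), among the 3 of the subunit nearest to 0. Rplp1 had 306, 325 and 287 CPM in TG and 321, 433 and 369.9 CPM in WT livers. Its groups overlapped, with a log2 fold change of -0.29 (edgeR adjusted p = 0.675). Rplp2 had 118, 111 and 115 CPM in TG and 121, 172 and 139.9 CPM in WT livers, without overlap, and a log2 fold change of -0.33 (edgeR adjusted p = 0.585).

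Rpl5 and Rpl11 join the 5S RNA before they enter the 60S subunit, and outside it they bind the p53 ligase Mdm2. Rpl5 had 279, 269 and 257 CPM in TG and 319, 421 and 331 CPM in WT livers. The groups stayed apart under both scalings, with a log2 fold change of -0.41 (SE 0.22, edgeR adjusted p = 0.557). Rpl11 had 191, 159.6 and 163 CPM in TG and 192, 282 and 188 CPM in WT livers. Its groups overlapped, since TG replicate 1 lay above WT replicate 3, and its log2 fold change was -0.37 (SE 0.23, edgeR adjusted p = 0.616).

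Some members have a close relative that can take their place in the ribosome of another tissue, and for Rpl3, Rpl10, Rpl39 and Rpl22 the usual form was the more abundant one in these livers. Levels of different genes are compared per kilobase of exon here, except where a rank or limit is stated by CPM. Rpl3 read 123 CPM per kb and its muscle form Rpl3l 0.178. Rpl3 had 333, 363 and 341 CPM in TG and 398, 496 and 409 CPM in WT livers, without overlap, with a log2 fold change of -0.33 (edgeR adjusted p = 0.634). Rpl3l held 2, 1 and 3 counts in TG and 16, 4 and 2 counts in WT livers, at or under the smallest number told from 0 in 4 of 6 libraries. The testis forms Rpl10l and Rpl39l held 0 counts and 1, 2 and 0 counts in TG with 0 in each WT liver, which is not told from 0. Their usual forms were Rpl10, at 201 CPM per kb, and Rpl39, a small protein of the exit tunnel, at 42.7 CPM per kb.

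Rpl10, one of the last proteins to join the 60S subunit, had 359, 367 and 403 CPM in TG and 372, 504 and 469.6 CPM in WT livers. Its groups overlapped, with a log2 fold change of -0.25 (edgeR adjusted p = 0.735). Rpl39 had 51.4, 60.3 and 56.5 CPM in TG and 60.9, 73.5 and 65.1 CPM in WT livers, without overlap, with a log2 fold change of -0.25 (edgeR adjusted p = 0.609). Rpl22, which also binds RNA outside the ribosome, read 33.6 CPM per kb, and its relative Rpl22l1 read 5.32. Rpl22 had 88.4, 86.9 and 91.3 CPM in TG and 92.6, 124 and 104 CPM in WT livers. The groups did not overlap, and the log2 fold change was -0.27 (edgeR adjusted p = 0.622). Rpl22l1, which the naming rule leaves out, had 9.23, 8.25 and 11.8 CPM in TG and 9.40, 13.2 and 11.6 CPM in WT livers, with overlapping groups and a log2 fold change of -0.22 (edgeR adjusted p = 0.768).

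Among the 40S members, Rps2, which lies at the mRNA entrance, was the most abundant by CPM. It had 513, 477 and 525 CPM in TG and 565, 789 and 626 CPM in WT livers. The groups did not overlap, with a log2 fold change of -0.39 (SE 0.25, edgeR adjusted p = 0.617). Rpsa, also known as the laminin receptor precursor, had 395, 387 and 428 CPM in TG and 464, 639 and 517 CPM in WT livers. The groups lay apart, with means of 403 ± 21.6 and 540.2 ± 89.8 CPM and a log2 fold change of -0.42 (SE 0.24, edgeR adjusted p = 0.577). Rps6, the 40S protein that S6 kinase phosphorylates, had 341, 323 and 332 CPM in TG and 384, 511 and 404 CPM in WT livers, again without overlap. Its log2 fold change was -0.38 (SE 0.23, edgeR adjusted p = 0.591).

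The smallest p of the 40S subunit was that of Rps13, at 105, 88.7 and 99.5 CPM in TG and 116, 149.9 and 121 CPM in WT livers. The groups did not overlap, with a log2 fold change of -0.40 (SE 0.18, edgeR unadjusted p = 0.0620, adjusted p = 0.484).

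Rps19, mutated in many families with Diamond-Blackfan anaemia in humans, had 117, 101 and 111 CPM in TG and 118, 147 and 131 CPM in WT livers. TG replicate 1 and WT replicate 1 were almost level, and the log2 fold change was -0.27 (SE 0.17, edgeR adjusted p = 0.616). Among the 40S members nearest to 0 were Rps15a and Rps29, with log2 fold changes of -0.15 and -0.18 and edgeR adjusted p-values of 0.792 and 0.760. Rps15a had 94.1, 93.1 and 85.0 CPM in TG and 83.6, 107 and 112 CPM in WT livers, where WT replicate 1 was the lowest of the 6. Both genes had overlapping groups.

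The paralogs Rps27 and Rps27l were both read in these livers, Rps27l at 131 CPM per kb and Rps27 at 66.4. The comparison is uncertain, since Rps27 has a close copy, Rps27rt, and how reads matching several places were counted is not given. Rps27 had 64.7, 61.4 and 58.6 CPM in TG and 70.9, 94.7 and 65.5 CPM in WT livers. Its groups did not overlap, with a log2 fold change of -0.32 (SE 0.18, edgeR adjusted p = 0.577). Rps27l, a p53 target in other settings, had 95.8, 90.2 and 109 CPM in TG and 101, 139 and 107 CPM in WT livers. Its groups overlapped, with a log2 fold change of -0.23 (SE 0.19, edgeR adjusted p = 0.703). Rps4x read 171 CPM per kb, and Rps4l, annotated as a transcribed processed pseudogene and so no member, read 14.6. Rps4x had 247, 258 and 239 CPM in TG and 265, 367 and 298 CPM in WT livers, without overlap, with a log2 fold change of -0.32 (edgeR adjusted p = 0.634). Rps4l overlapped between the groups, with a log2 fold change of -0.14 (edgeR adjusted p = 0.835).

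Rps27a is made as a fusion with ubiquitin, which is cut off to leave the 40S protein. It had 153, 147 and 145 CPM in TG and 163, 226 and 171 CPM in WT livers, without overlap, and a log2 fold change of -0.33 (SE 0.20, edgeR adjusted p = 0.599). Fau, the fusion of a ubiquitin-like protein with a 40S protein, had 199, 153 and 157 CPM in TG and 198, 311 and 171 CPM in WT livers. These groups overlapped, with a log2 fold change of -0.42 (SE 0.28, edgeR adjusted p = 0.630). Rack1, the scaffold on the head of the 40S subunit, had 340.5, 322 and 306 CPM in TG and 349, 426 and 391 CPM in WT livers, without overlap, and a log2 fold change of -0.27 (edgeR adjusted p = 0.694).

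Rps18 was the member that stood furthest from the rest in a single library, and it was chosen after its values were seen. The gene (ENSMUSG00000008668, mm10 chr17:33951999-33956001, minus strand) lies in the major histocompatibility region. It had 249, 229 and 122 CPM in TG and 265, 173 and 285 CPM in WT livers. TG replicate 3 was the lowest of the 6, and WT replicate 2, the highest for most members, was the second lowest, so that the groups overlapped. Relative to the median of the 40S members in each library, and to its own median over the libraries, Rps18 stood at -0.92 (log2) in TG replicate 3 and at -0.996 in WT replicate 2. The member with the next largest distance in any library was Rpl13a, at -0.51 in WT replicate 2. The log2 fold change of Rps18 was -0.27 (SE 0.33, edgeR adjusted p = 0.809).

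The row of its pseudogene Rps18-ps3 ran the other way in the same libraries. It held 5, 8 and 142 counts in TG and 6, 135 and 10 counts in WT livers, where Rps18 held 4101, 4051 and 2399 counts in TG and 4180, 2285 and 5477 counts in WT livers. With these counts added, the same 2 libraries stay the lowest for Rps18. Whether the reads of these libraries differ in sequence from the reference here was not tested.

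**Figure D4:**
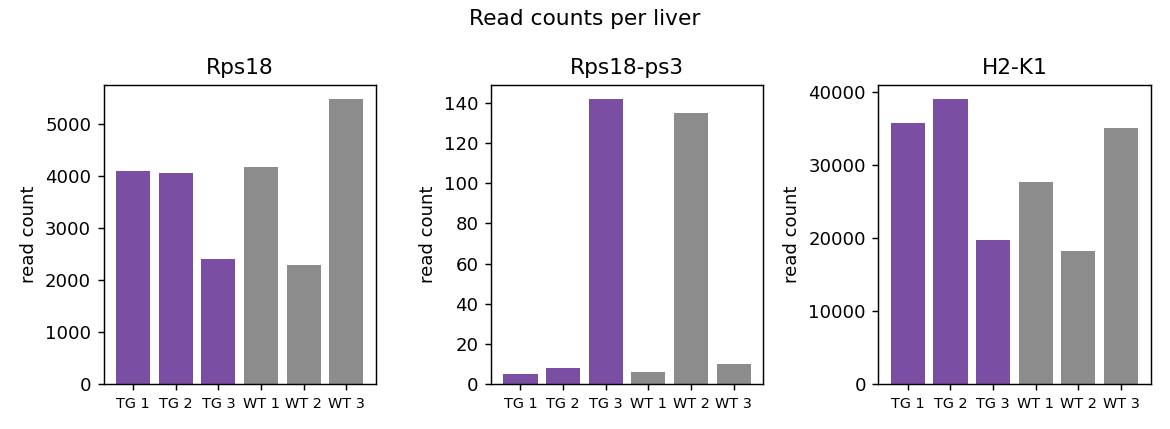
Rps18, its pseudogene row Rps18-ps3 and H2-K1, a gene of the same region with nearer genes between them, in each library, in counts. Rps18 and H2-K1 are lowest in TG replicate 3 and WT replicate 2, the libraries in which Rps18-ps3 reaches 142 and 135 counts.

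The levels of the members ranged widely. Per kilobase of exon the highest was Rplp1 at 682 CPM per kb, then Rplp0 at 367, Rps15 at 333 and Rpl4 at 323. The middle 50% of members lay between 47.4 and 141 CPM per kb, and the medians of the 60S and 40S members were 86.7 and 87.2. Rps15, Rpl24, Rpl35 and Rps10 are named for these levels or for their copies, chosen after their values were seen. At the low end were Rpl3l, Rpl24 at 0.229, Rpl13a at 1.74 and Rpl30 at 6.51 CPM per kb. How the authors' counting treated reads that match several places or several genes is not given in the sources used here, so low levels of genes with copies or overlapping neighbours are uncertain.

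Overlap with other annotated genes was common at the low end. In the mm10 annotation, 41 of 78 members share no exon base with another gene. The 4 members below 10 CPM were Rpl24, Rpl3l, Rpl13a and Rpl23a, with a median of 41.2% of exon bases shared. Of these, Rpl3l shares 0%, and the median of all members was 0%. Tlcd1 covers 59.7% of the exon bases of Rpl23a, on the opposite strand. Rpl24 shares 47.0% with Gm28037, and Gm45713 covers 29.4% of the exon bases of Rpl13a, both on the member's own strand. Rpl35, at 10.3 CPM per kb, shares 66.2% with Wdr38 on the opposite strand. Rpl13a, which in human myeloid cells also silences inflammatory mRNAs, had 2.91, 3.45 and 3.61 CPM in TG and 3.94, 3.71 and 4.42 CPM in WT livers. Its groups did not overlap, with a log2 fold change of -0.28 (SE 0.27, edgeR adjusted p = 0.754). Rpl24 held 0.182, 0.283 and 0.102 CPM in TG and 0.444, 0.303 and 0.104 CPM in WT livers, close to the level of 3 counts.

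Rows named after a member with "-ps", taken as pseudogene copies by name only, took 0.0363% to 0.0511% of counts in a library. They numbered 290, of which 84 held at least 10 counts and 47 were tested. For 12 members the copies held 10% or more of the member's own counts, with the largest shares for Rps10 (53.2%), Rpl23a (39.8%), Rpl21 (36.8%) and Rpl14 (34.5%). Fitted log2 fold changes of the 47 tested copies had their median at -0.27, with 42 below 0. EdgeR gave 3 of them, lower in TG, at an unadjusted p under 0.05, against 2.37% of all genes. Part of what is counted in these rows may be reads of the members, and the split between them was not tested.

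Other genes of the pathway, taken as whole lists, had medians between -0.35 and -0.01 with TMM scaling. Of all genes tested, 53.8% were below 0 with TMM scaling and 39.3% by library size alone. EdgeR, DESeq2 and voom called 0 genes of these lists after adjustment, and edgeR gave 0 at an unadjusted p under 0.05. For the 8 ribosomal proteins under other names the median was -0.35 on the log2 scale, with 8 below 0 and 3 with all TG below all WT, against 6.14% of all genes. Among them, Rps3a1 had 311, 288 and 318 CPM in TG and 348, 498 and 367 CPM in WT livers. Its groups lay apart, with a log2 fold change of -0.41 (edgeR adjusted p = 0.590). Rps27rt, a close copy of Rps27, had 11.2, 10.1 and 9.60 CPM in TG and 13.5, 16.6 and 12.1 CPM in WT livers, without overlap, and a log2 fold change of -0.45 (edgeR adjusted p = 0.482).

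The 14 other TOP mRNAs, which encode elongation and initiation factors and RNA-binding proteins, had a median of -0.26, with 12 below 0. By library size alone 11 were below 0, and with TMM scaling 4 had all TG below all WT. Eef1b2, an exchange factor of elongation factor 1, had a log2 fold change of -0.41 (edgeR adjusted p = 0.519), and its TG values of 152 to 170.1 CPM lay below its WT values of 178 to 247 CPM. Eif3e had -0.29 and Eef1d -0.27, with edgeR unadjusted p-values of 0.0979 and 0.179. The 8 RNA polymerase I genes, which make ribosomal RNA, had a median of -0.08, with 7 below 0, but with 3 below 0 by library size alone. The 8 snoRNP genes, which modify that RNA, had a median of -0.19, with 8 below 0, and with 6 below 0 by library size alone. In both of these lists 0 genes had all TG below all WT, against 6.14% of all genes.

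The 45 assembly factors tested had a median of -0.13, with 35 below 0. By library size alone 27 were below 0, with a median of -0.04. With TMM scaling 2 of the 45 had all TG below all WT, against 6.14% of all genes. Their median differences from the WT mean (log2, TMM-scaled) were -0.08, -0.28 and -0.01 in TG livers. In WT livers they were -0.23, -0.11 and 0.34, so that WT replicate 3 was highest and the groups overlapped. The smallest p among the assembly factors was that of Las1l, which processes the spacer RNA of the 60S precursor. It had 36.9, 31.8 and 39.2 CPM in TG and 46.5, 46.9 and 43.4 CPM in WT livers. Its groups did not overlap (log2 fold change -0.34, edgeR adjusted p = 0.453). Tcof1, a cofactor of polymerase I, had a log2 fold change of 0.42 (edgeR unadjusted p = 0.151), and Nmd3, the export adaptor of the 60S subunit, had -0.37 (edgeR unadjusted p = 0.141). The 6 tested chaperones of ribosomal proteins had a median of -0.21, with 5 below 0 under both scalings and 2 with all TG below all WT with TMM scaling. Heatr3, which is needed for the import of Rpl5, had -0.41 (edgeR adjusted p = 0.482).

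The 12 genes of mTORC1 and translation control had a median of -0.01, with 7 below 0 and 0 with all TG below all WT. By library size alone 4 were below 0. Eif4ebp1, an inhibitor of cap-dependent translation, had 70.6, 61.4 and 86.3 CPM in TG and 45.8, 51.4 and 69.7 CPM in WT livers. These groups overlapped, with a log2 fold change of 0.39 (edgeR adjusted p = 0.575). Eef2k, which inhibits elongation, had -0.42 (edgeR unadjusted p = 0.357).

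**Figure D5:**
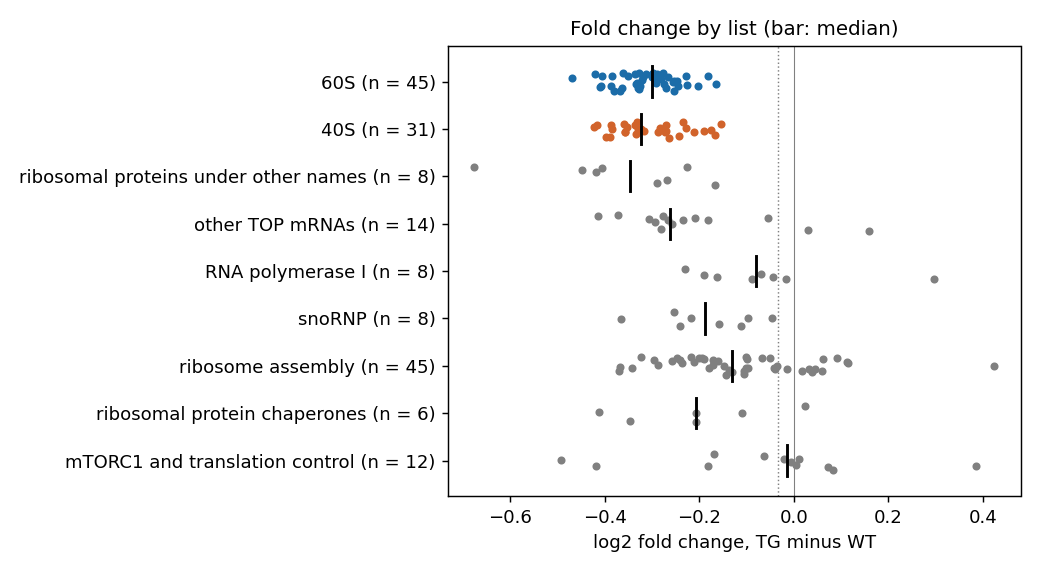
Fitted log2 fold change (TG minus WT) of each tested gene of the 60S and 40S members and of the related lists, with the median of each list as a bar and the median of all genes as a dotted line. The medians run from -0.35 for ribosomal proteins under other names to -0.01 for mTORC1 and translation control.

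Markers of some other cell types had fitted fold changes all on the same side of 0, where 6483 of all 14031 genes tested were above 0. No test was made of the marker sums, and their part in the levels of the ribosomal protein transcripts was not tested. All 8 macrophage markers tested had fold changes above 0, as did 4 of 4 neutrophil markers. The neutrophil markers summed to 5.28 to 183 CPM in TG and 2.57 to 6.60 CPM in WT livers, with overlapping groups. Of 5 tested markers of stellate cells and fibroblasts, 5 were above 0. Their sums of 293 to 331 CPM in TG and 226 to 295 CPM in WT livers overlapped. Of 6 tested hepatocyte markers, 0 were above 0. The remaining lists were mixed or short. Above 0 were 3 of 4 tested endothelial markers, 2 of 4 of B and plasma cells and 2 of 2 of T and NK cells. For bile ducts it was 1 of 4, and for red cell precursors 2 of 3. Endothelial markers summed to 125 to 153 CPM in TG and 54.2 to 177 CPM in WT livers. No marker of these lists was at 0 in all 6 libraries.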

How the data were processed

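The authors deposited raw counts of reads for 52550 Ensembl genes in 6 liver libraries. Per the labels' protocols, frozen liver was put in Trizol and sequenced after VAHTS Universal V6 RNA library preparation. A molecule field of the labels reads genomic DNA; RNA was assumed. Per the submitters' processing notes, TopHat, Cufflinks and mm10 were used. Not given in the sources used here are the counting program and how it treated strand and reads matching several places. Symbols came from a gene name table, with a match for 52403.

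Counts were filtered with filterByExpr by group (14031 genes left), scaled by TMM and compared, TG against WT, by the quasi-likelihood test of edgeR (4.0.16, R 4.3.3, robust dispersion, two-sided), with Benjamini-Hochberg adjustment over all genes and a threshold of 0.05. SE is the fold change over the root of F. CPM are given per mouse or as mean ± SD. CPM per kb is the mean CPM over the union of annotated exons. The fits were tested on simulated counts. DESeq2 (1.42.0) and limma voom (3.58.1), other scalings and filters, a replicate block and leaving out each library were alternatives.

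The members and lists were chosen with earlier results of these data known. Members named with values are those highest by mean CPM, those at both ends of the fold changes and those with the smallest p in each subunit, plus a set by role. Of each related list, up to 3 genes with the smallest p were eligible. Genes outside this rule are marked as chosen later. A few genes under this rule are not reported here by name but stay in the totals.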

Additional observations from a re-analysis of the deposited data

How the results depend on the processing

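In every fit run, edgeR, DESeq2 and voom called 0 members of either subunit after adjustment. The 36 tested genes named by the rule for members, with its set by role, kept a log2 fold change below 0 in these fits. Their lowest adjusted p was 0.293, from DESeq2, over 576 values. The count of all genes called was 0 in the edgeR fit, 373 with DESeq2, 1 with voom and 0 to 305 when 1 library was left out, the most without TG replicate 3; the cause was not tested. The median log2 fold change of the 60S members ran from -0.40 without WT replicate 1 to -0.16 without WT replicate 2, and that of the 40S members from -0.41 to -0.17 without the same libraries. Members with all TG below all WT numbered 28 to 40 (60S) and 18 to 26 (40S) with 1 library left out, the most for 40S without WT replicate 1, against 9.17% to 17% of all genes in the same comparisons. By library size alone they numbered 1 and 0; the scaling factors differ by construction. Adding the "-ps" rows to the members gave 28 and 17.

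The labels do not tie the replicate number to a shared litter or day. Deviations of same-numbered samples from their group means, in log CPM over the genes tested, correlated at 0.138, -0.211 and 0.0929. Those of differently numbered samples correlated at -0.238 to 0.123. Whether same-numbered samples share a litter or day was not tested. With the replicate block, 0 genes were called and the medians were -0.29 and -0.31. The members' biological coefficients of variation had a median of 0.233 in each subunit. The median was 0.280 over all genes and 0.241 over genes of at least 50 CPM. The single common value fitted over all genes was 0.329.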

Other observations

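H2-K1, which encodes a classical class I antigen-presenting protein, lies in the same region as Rps18 (mm10 chr17:33996017-34000347, minus strand). H2-K1 was chosen after the values were seen, among 40 tested genes, Rps18 included, within 500 kb of it. It held 35733, 38970 and 19740 counts in TG and 27595, 18154 and 35056 counts in WT livers. TG replicate 3 and WT replicate 2 were the lowest, as for Rps18, so 1 liver of each group was low. By counts, H2-Ab1, H2-Aa, H2-Eb1, H2-DMb1 and BC051226 of these 40 genes also had those libraries lowest. H2-Ab1 held 2188, 1003 and 532 counts in TG and 572, 387 and 840 counts in WT livers. BC051226 held only 18 and 11 counts in the low libraries. The other tested genes within 500 kb did not share this order. H2-K2, which lies between the pair, held 187, 108 and 338 counts in TG and 82, 148 and 593 counts in WT livers and did not share this order. Rps28, a 40S member in the same region, held 1023, 1007 and 1119 counts in TG and 1009, 1150 and 1097 counts in WT livers, and showed no such gap.

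Rpl36al, a relative of Rpl36a outside the naming rule, also chosen after its values were seen, held 6, 5 and 33 counts in TG and 6, 14 and 44 counts in WT livers. The third replicate of each group was the highest. Pdcd2, on the list of chaperones of ribosomal proteins, was listed at 0 in all 6 libraries.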
